A study of Homo sapiens with 6 samples.

Results

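The 9 genes described here encode the MHC class I antigen presentation machinery. They were selected by their gene symbols, and all 9 are among the 35993 genes in the deposited table. HLA-B, HLA-C and HLA-E encode class I heavy chains, and B2M encodes beta-2-microglobulin, the light chain. TAP1 and TAP2 form the peptide transporter, TAPBP encodes tapasin, ERAP1 encodes a peptide-trimming aminopeptidase and NLRC5 is a transactivator of class I genes. The libraries are RNA-seq libraries of MIA PaCa-2, a human pancreatic carcinoma cell line that is long established, from cells left untreated (3 libraries) or given 4 µM recombinant human cytoglobin (rhCYGB) for 48 h (3 libraries). Cytoglobin is a hemeprotein of the globin family, and the recombinant protein was produced in E. coli. Both groups belong to the same cell line and no allele or transgene separates them. The protocol in the labels puts the cells in medium with 1% FBS before treatment. The untreated cells were not given another protein in place of rhCYGB. The labels do not say whether the 3 libraries of a group came from separate cultures, so the p-values measure the spread between these libraries, which may be technical.

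MHC class I molecules display peptides from inside the cell to CD8+ T cells and to natural killer cell receptors. Proteasomes cut proteins into peptides, TAP moves the peptides into the endoplasmic reticulum, ERAP1 trims them, and tapasin holds empty heavy chain and B2M dimers beside TAP until a peptide is bound. Interferons raise the transcription of most of these genes through factors that include IRF1 and NLRC5, and NF-kB also acts on class I promoters. Loss of class I presentation is a known feature of many carcinomas, pancreatic carcinoma included.

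Reads on genes totalled 34838399 to 42271299 per library, and the 9 genes held 0.135% to 0.144% of them. At this depth 3 counts correspond to 0.0669 to 0.0902 CPM, the count of a gene relative to its library's total as scaled with edgeR's TMM factors. Keratin genes of the labelled epithelial cell were present, with KRT8, KRT18 and KRT19 at 5886 to 96291 counts per library, but EPCAM had 0 counts in every library and CDH1 at most 2. VIM, a mesenchymal gene known in carcinoma lines, had 301699 to 447853 counts. Of 6 leukocyte markers, PTPRC and CD3E were among those with 0 counts in every library, and the list summed to 1387 to 1755 counts in untreated and 2430 to 2658 in rhCYGB libraries, most of them from CD68. Of 3 endothelial markers, PECAM1 had 0 counts in every library, and the list summed to 4443 to 5436 untreated and 390 to 465 rhCYGB counts, nearly all from CDH5. The 5 stellate cell and fibroblast markers summed to 362 to 442 untreated and 182 to 209 rhCYGB counts, the 3 acinar markers to at most 7, and INS and GCG of islet cells had 0.

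Promoter sequences of 5 of the 9 genes are shown because their class I regulatory motifs can be read beside the expression values that follow. They come from RefSeq on GRCh38.p14, which holds windows of 250 bases before to 50 bases after the start of 7 of the 9 genes (HLA-E and NLRC5 had no entry). Capitals mark matches to any of 5 motifs on either strand. These were TTTCNNTTTC (the core of the interferon-stimulated response element, ISRE), GGGNNTTTCC and GGGATTCCC (2 forms of the NF-kB site), TGACG (the core of a CREB and ATF site) and CCAAT (the NF-Y box), and on the opposite strand they read in reverse complement. Each stretch ends 5 to 50 bases before the gene's start.
HLA-B, chr6:31357229-31357369, minus strand: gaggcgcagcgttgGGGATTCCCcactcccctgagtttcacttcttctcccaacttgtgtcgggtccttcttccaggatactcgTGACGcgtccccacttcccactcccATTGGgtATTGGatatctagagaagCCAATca
HLA-C, chr6:31272142-31272282, minus strand: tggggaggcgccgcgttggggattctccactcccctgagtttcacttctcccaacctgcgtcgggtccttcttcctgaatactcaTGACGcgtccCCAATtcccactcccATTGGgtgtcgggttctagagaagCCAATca
B2M, chr15:44711357-44711487, plus strand: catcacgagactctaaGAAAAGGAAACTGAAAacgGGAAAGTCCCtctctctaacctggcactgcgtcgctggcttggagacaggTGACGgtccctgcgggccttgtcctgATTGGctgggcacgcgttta
TAP1, chr6:32853744-32853844, minus strand: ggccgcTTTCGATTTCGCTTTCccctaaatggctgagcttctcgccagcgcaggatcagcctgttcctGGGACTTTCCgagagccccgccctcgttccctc
TAPBP, chr6:33314083-33314148, minus strand: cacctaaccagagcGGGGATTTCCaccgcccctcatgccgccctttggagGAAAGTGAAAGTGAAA
TAPBP carried 2 overlapping ISRE cores 20 to 5 bases before its start and an NF-kB match at 56 to 47 bases. TAP1 and B2M also carried 2 overlapping ISRE cores and 1 NF-kB match each. HLA-B carried the palindromic NF-kB site, a TGACG and 3 CCAAT boxes, whereas the HLA-C window held no match to either NF-kB form. HLA-C had a TGACG and 4 CCAAT boxes, of which 3 lie in the stretch shown. Of the windows not shown, TAP2 had 1 ISRE core 58 to 49 bases before its start, and ERAP1 had 1 that lay 3 to 12 bases after its start. Among all 35116 RefSeq windows, 3.57% held TTTCNNTTTC, 1.91% GGGNNTTTCC, 0.384% GGGATTCCC, 24.6% TGACG and 34.6% CCAAT. These matches describe letters in the reference windows only. Near matches are not marked, so an unmarked stretch does not show that a site is absent. The promoter sequences of MIA PaCa-2 itself were not determined here.

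The comparison asked how rhCYGB changed the mRNA levels of these genes. After rhCYGB the 3 heavy chain genes rose, by 1.43- to 1.81-fold, while B2M, TAP2, TAPBP, ERAP1 and NLRC5 fell and TAP1 did not pass the test. All 9 genes passed the filter on low counts. With edgeR's quasi-likelihood test and Benjamini-Hochberg adjustment over 14728 genes (called at adjusted p under 0.05), 3 of the 9 were called higher and 5 lower, beside 39.0% of all tested genes called higher and 38.6% called lower. Thus 8 of 9 were called in a comparison in which 77.6% of all tested genes were called. Only TAPBP also passed a 2-fold threshold, which 27.1% of all tested genes did (12.4% higher and 14.7% lower). The median log2 fold change was -0.28 over the 9 genes and -0.0046 over all genes tested. The CPM values of the groups did not overlap for 8 of the 9 genes, as for 79.5% of all tested genes. Scaling by total counts or by the upper quartile moved the median of all genes to -0.17 or -0.15, and the 8 called genes kept their direction under both.

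**Figure D1:**
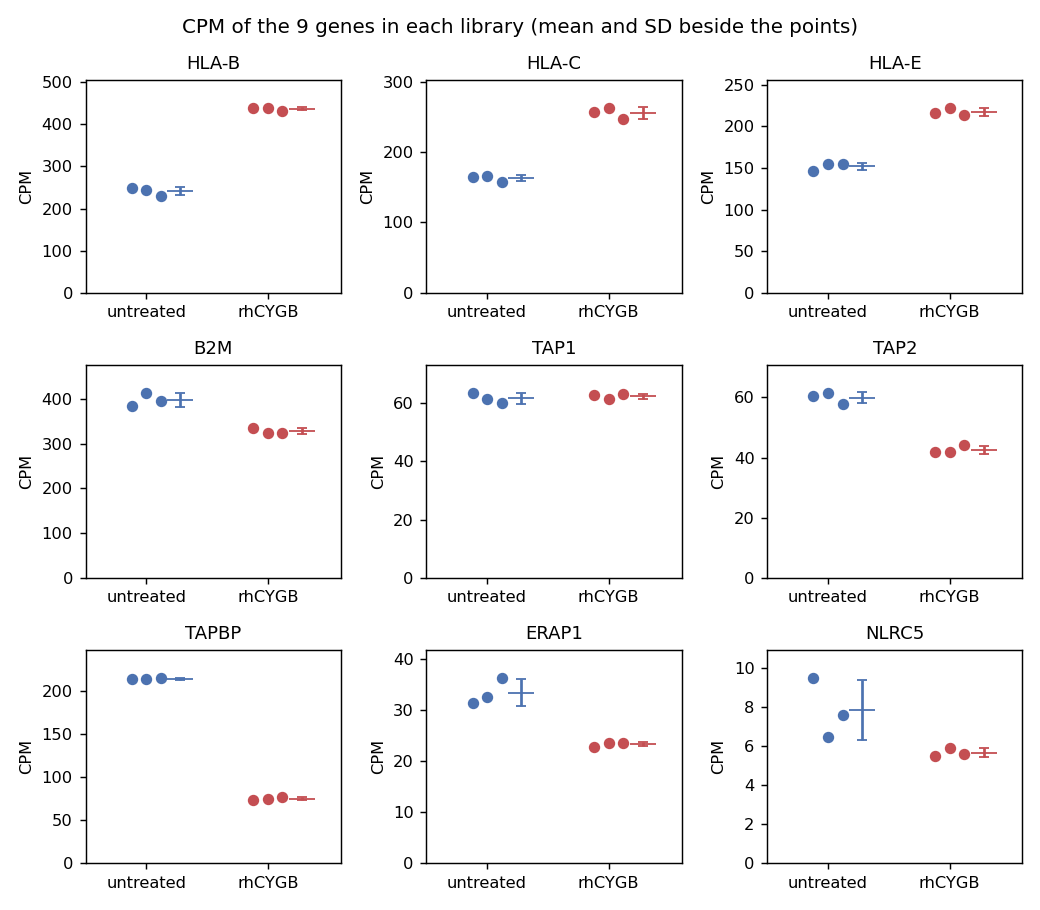
CPM of each of the 9 genes (vertical axes, CPM from 0) in the 3 untreated (blue) and 3 rhCYGB (red) libraries, 1 point per library, with the mean and SD beside the points. HLA-B, HLA-C and HLA-E sit higher in every rhCYGB library, TAP1 overlaps, and the other 5 genes sit lower, TAPBP from 214 to 74.5 CPM.

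HLA-B encodes a classical heavy chain that presents peptides to CD8+ T cells. Its CPM was 249, 244 and 231 in untreated libraries 1 to 3 and 440, 439 and 433 in rhCYGB libraries 1 to 3. The groups did not overlap, with rhCYGB higher. The mean rose from 241 ± 9.43 to 437 ± 4.08 CPM (SD, n = 3 each), a log2 fold change of 0.86 with a standard error (SE) of 0.0375, and edgeR's quasi-likelihood test gave a Benjamini-Hochberg adjusted p of 1.19e-11.

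HLA-C, the other classical heavy chain of the group and also a ligand of killer cell immunoglobulin-like receptors, was at 165, 166 and 158 CPM in untreated and 258, 264 and 247 CPM in rhCYGB libraries. The groups again did not overlap, with the rhCYGB libraries higher. The log2 fold change was 0.65 (standard error 0.0390), and the adjusted p by edgeR's quasi-likelihood test was 4.78e-10.

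HLA-E is a nonclassical class I molecule that mainly displays leader peptides of other class I chains to the NKG2A and NKG2C receptors. Its CPM was 147, 154 and 155 in untreated and 217, 223 and 214 in rhCYGB libraries, without overlap. Its log2 fold change of 0.52 (standard error 0.0379) was the smallest of the 3 heavy chains, with an adjusted p of 5.34e-09 by edgeR's quasi-likelihood test. The 95% interval of HLA-B, 0.78 to 0.94, lay above those of HLA-C (0.57 to 0.74) and HLA-E (0.44 to 0.60).

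The HLA genes share long near-identical stretches, and the counting does not state how reads that match several of them were assigned, so the split between HLA genes is uncertain.

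B2M, whose product pairs with all of these heavy chains, moved the other way. It was at 384, 415 and 396 CPM in untreated and 335, 324 and 324 CPM in rhCYGB libraries, with every rhCYGB library below every untreated library. The log2 fold change was -0.28 (SE 0.0377 and adjusted p 6.23e-06 by edgeR's quasi-likelihood test).

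Levels between genes were compared as FPKM, the deposited fragment count scaled to transcript length and to the mapped reads of the library. FPKM carry no TMM factors, and on log2(FPKM + 0.1) the median change of all tested genes after rhCYGB was -0.15. Differences in FPKM between groups include that shift. In untreated cells B2M was highest, at 222 ± 8.82 FPKM, followed by HLA-B at 146 ± 4.59 and HLA-C at 98.5 ± 2.05 (SD, n = 3). In rhCYGB cells HLA-B was above B2M, at 237 ± 4.16 against 163 ± 5.17 FPKM. HLA-C stood at 138 ± 2.11 and HLA-E at 71.0 ± 0.0632 FPKM in rhCYGB cells, HLA-E having been at 55.6 ± 2.02 before. The summed FPKM of HLA-B, HLA-C and HLA-E divided by that of B2M was 1.42, 1.32 and 1.32 in untreated and 2.69, 2.81 and 2.72 in rhCYGB libraries. This ratio was 2.02 times as high after rhCYGB and did not overlap between groups. For groups of 3 libraries each that do not overlap, a 2-sided exact permutation test gives p = 0.1. No smaller p is possible with 3 against 3 libraries, and the same limit held for all 10 such ratios computed.

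**Figure D2:**
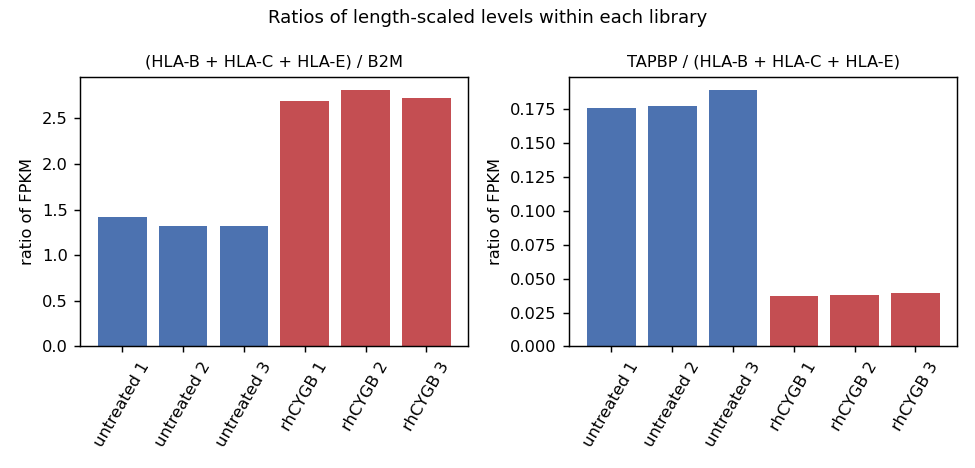
Ratios of FPKM within each library (vertical axes from 0), for the summed heavy chains over B2M and for TAPBP over the summed heavy chains, 1 bar per library. The heavy chain to B2M ratio is 1.32 to 1.42 in the 3 untreated and 2.69 to 2.81 in the 3 rhCYGB libraries, and the TAPBP to heavy chain ratio falls from 0.176 to 0.189 down to 0.0370 to 0.0394.

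TAPBP encodes tapasin, which bridges class I molecules to TAP and edits the peptides they bind. It showed the lowest fold change of the 9 genes. Its CPM was 213, 213 and 215 in untreated and 72.9, 74.6 and 76.0 in rhCYGB libraries. The untreated libraries were within 2 CPM of each other and the groups were far apart. The log2 fold change was -1.52 (standard error 0.0370, 95% interval -1.60 to -1.44), which is 0.348 times the untreated level, with an adjusted p of 1.88e-14 by edgeR's quasi-likelihood test.

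On the FPKM scale TAPBP fell from 54.3 ± 1.33 to 17.0 ± 0.470 (SD, n = 3). It therefore moved from the level of HLA-E in untreated cells, with overlapping libraries, to the level of TAP1 in rhCYGB cells, again with overlapping libraries. TAPBP FPKM over the summed heavy chain FPKM was 0.176, 0.177 and 0.189 in untreated and 0.0370, 0.0383 and 0.0394 in rhCYGB libraries. That ratio after rhCYGB was 0.211 times the untreated one, and the groups did not overlap (2-sided exact permutation p = 0.1, the smallest possible).

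TAP1 and TAP2 differed although their products form a single heterodimer. TAP1 was at 63.6, 61.5 and 59.9 CPM in untreated and 62.7, 61.3 and 62.9 CPM in rhCYGB libraries, with overlapping groups. Its log2 fold change was 0.02 (95% interval -0.08 to 0.11, adjusted p 0.740 by edgeR's quasi-likelihood test), but it was -0.15 with total-count scaling and -0.13 with upper-quartile scaling, where it passed the test, so TAP1 has no settled direction here. Those values were close to the shift of the median of all genes under the same scaling.

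TAP2 was at 60.4, 61.6 and 57.8 CPM in untreated and 42.0, 41.7 and 44.2 CPM in rhCYGB libraries. The groups were separate, with rhCYGB lower. The log2 fold change was -0.49 (SE 0.0480 and adjusted p 1.72e-07 by edgeR's quasi-likelihood test). The ratio of TAP1 to TAP2 FPKM rose from 2.03 to 2.85, from 1.93 to 2.08 per untreated library and 2.77 to 2.92 per rhCYGB library (2-sided exact permutation p = 0.1, the smallest possible).

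ERAP1 trims the N-terminal ends of peptides in the endoplasmic reticulum. It was at 31.4, 32.5 and 36.3 CPM in untreated and 22.8, 23.5 and 23.4 CPM in rhCYGB libraries. All rhCYGB values lay below the untreated ones. The log2 fold change was -0.52 (SE 0.0629 and adjusted p 1.82e-06 by edgeR's quasi-likelihood test). ERAP1 overlaps CAST in the deposited positions, and CAST had 9812 to 15919 counts per library and a log2 fold change of 0.72. Whether the counting used strand is not stated, so reads from the overlap cannot be told apart.

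NLRC5 was the least expressed of the 9, with 196 to 353 counts per library. Its CPM was 9.48, 6.43 and 7.58 in untreated and 5.46, 5.89 and 5.56 in rhCYGB libraries. The groups did not overlap, but untreated library 2 was close to the rhCYGB libraries and untreated library 1 was the highest. The log2 fold change was -0.47 (SE 0.138 and adjusted p 0.00617 by edgeR's quasi-likelihood test). Without untreated library 1 it was -0.31 with an adjusted p of 0.0506 by the same test, so the call rested on that library.

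**Figure D3:**
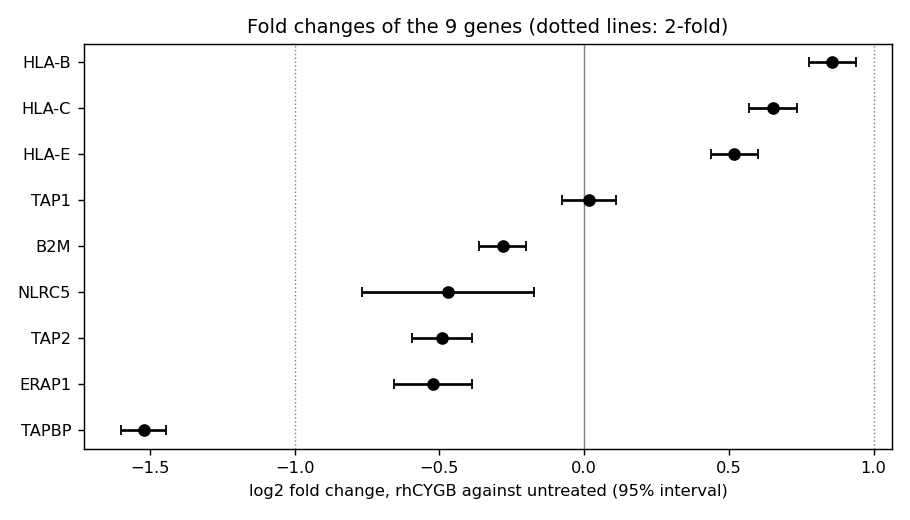
Log2 fold change of rhCYGB against untreated (horizontal axis) for the 9 genes, with 95% intervals from the edgeR fit and dotted lines at 2-fold. HLA-B, HLA-C and HLA-E lie at 0.52 to 0.86, TAPBP at -1.52, and the interval of TAP1 spans 0, a gene whose sign changes with the scaling.

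The FPKM order of the remaining genes was the same in both groups, with TAP1 at 19.7 ± 0.361 and 17.6 ± 0.605, TAP2 at 9.75 ± 0.257 and 6.19 ± 0.316, ERAP1 at 6.25 ± 0.599 and 3.81 ± 0.0860, and NLRC5 at 1.08 ± 0.207 and 0.699 ± 0.0172 (untreated then rhCYGB, SD, n = 3). None of these neighbours overlapped within a group. TAP1 FPKM did not overlap between groups, although its CPM did, because FPKM lack the TMM scaling. Among all tested genes the mean FPKM of HLA-B and of B2M stood at the 98.1 percentile, HLA-C at 96.8, HLA-E at 93.5, TAPBP at 88.3, TAP1 at 78.0, TAP2 at 58.5, ERAP1 at 47.9 and NLRC5 at 20.8.

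The transcript table divided each gene's reads among its annotated variants, and this division is an estimate of the assembler. Of 17 listed transcripts of the 9 genes 15 were tested, and 3 were called higher and 5 lower, beside 15.1% and 14.8% of all 32577 transcripts tested (29.9% in either direction). The single transcripts of HLA-B, HLA-C and HLA-E were the 3 called higher.

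NLRC5 had the most divided assignment. Variant 1, whose span begins at position 57050986 of chromosome 16, received 348, 288 and 156 counts in untreated and 8, 10 and 10 in rhCYGB libraries. Variant 2, whose span begins at 57023469, received 5, 0 and 153 counts in untreated and 195, 186 and 195 in rhCYGB libraries. Untreated library 3 stood apart from the other untreated libraries by this near-even split, and its variant 1 count was still above those of the rhCYGB libraries. Variant 1 had a log2 fold change of -4.70 (SE 0.471 and adjusted p 0.00114 by edgeR's quasi-likelihood test over transcripts). Variant 2 had 1.97 with a standard error of 1.80 and an adjusted p of 0.492 by the same test, which missed the threshold. Without untreated library 3, the values were -4.97 for variant 1 (adjusted p 0.00216) and 6.23 with a standard error of 1.49 for variant 2 (adjusted p 0.0485), by the same edgeR test. Without any other 1 library, variant 2 had 1.38 to 2.00 and missed the threshold (adjusted p 0.536 to 0.678 by the same test).

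For TAPBP, variant 1 received 7818, 8860 and 7628 counts in untreated and 2617, 2339 and 2689 in rhCYGB libraries, most of the gene's reads in each, and fell by 1.56 on the log2 scale (adjusted p 2.03e-05 by edgeR's quasi-likelihood test over transcripts). Variant 3 received 29, 565 and 986 counts in untreated and 10, 0 and 42 in rhCYGB libraries and did not pass the test. ERAP1 variant 2 received 831, 1134 and 1289 counts in untreated and 540, 541 and 565 in rhCYGB libraries, and its log2 fold change was -0.86 (adjusted p 0.0101 by the same test). The span of that variant begins at 96110188 on chromosome 5. Those of variants 1 and 4 begin at 96096514 and so cover more of CAST, whose span ends at 96110387. Variants 1 and 4 of ERAP1 ranged from 0 to 321 counts without separating the groups, and neither passed the test.

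**Figure D4:**
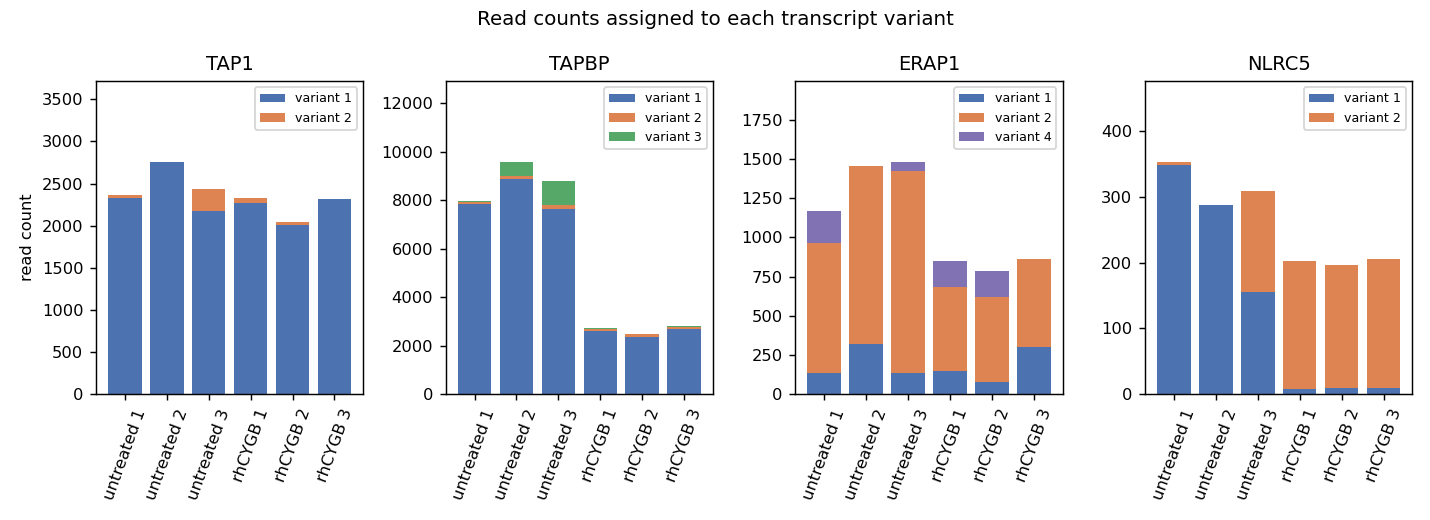
Read counts assigned to each transcript variant (vertical axes from 0) of TAP1, TAPBP, ERAP1 and NLRC5 in the 6 libraries, stacked within a library. NLRC5 reads are mostly on variant 1 in untreated libraries 1 and 2, divided in untreated library 3 and mostly on variant 2 in all 3 rhCYGB libraries.

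The positions in the deposited transcript table place HLA-B at 31321652 to 31324956, HLA-C at 31236526 to 31239869, HLA-E at 30457286 to 30461971, TAP1 at 32812986 to 32821748, TAP2 at 32789610 to 32806600 and TAPBP at 33267471 to 33282164, all on chromosome 6 in the MHC region. B2M lies at 45003715 to 45011075 on chromosome 15, ERAP1 at 96096514 to 96149848 on chromosome 5 and NLRC5 at 57023469 to 57117436 on chromosome 16. The table does not name its build, and 8 of the 9 spans do not overlap the same gene on GRCh38.p14, so these positions and those of the promoter sequences belong to different builds. Besides CAST, the overlapping genes were PSMB8-AS1 over TAP1 (14 to 87 counts per library), MIR6891 over HLA-B (at most 12), MIR10393 over B2M (3 in each library) and LOC100130044 over NLRC5 (0 in each).

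Counts of called genes in the related lists that follow stand beside 39.0% of all tested genes called higher, 38.6% called lower and 77.6% in either direction. Of 6 other genes of peptide loading and trimming, 1 was called higher and 5 lower, with a median log2 fold change of -0.57 against -0.0046 over all tested genes. CALR, the chaperone calreticulin that holds class I in the complex, was at 734, 733 and 754 CPM in untreated and 473, 465 and 481 CPM in rhCYGB libraries, a log2 fold change of -0.65. PDIA3 (ERp57), the disulfide isomerase bound to tapasin, was at 307, 315 and 321 against 228, 228 and 223 CPM, a log2 fold change of -0.47. CANX (calnexin), which holds newly made heavy chains before B2M joins them, was the 1 that rose, from 1015, 1025 and 1040 to 1331, 1276 and 1368 CPM, a log2 fold change of 0.37.

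UGGT1, which reglucosylates class I chains without a good peptide, had a log2 fold change of -0.50, and TAPBPL (TAPBPR), a tapasin relative that edits peptides, of -0.86. ERAP2, the partner of ERAP1 in trimming, passed the 2-fold threshold. Its CPM was 18.6, 19.5 and 20.6 in untreated and 4.20, 4.72 and 4.83 in rhCYGB libraries, a log2 fold change of -2.09 (SE 0.0926 and adjusted p 1.36e-11 by edgeR's quasi-likelihood test). The ratio of ERAP1 to ERAP2 FPKM accordingly went from 1.77 ± 0.0681 to 5.36 ± 0.127 (SD, n = 3), without overlap (2-sided exact permutation p = 0.1, the smallest possible).

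The immunoproteasome, the interferon-inducible form of the proteasome that favours class I ligands, and its PA28 activator were lower in all 5 genes tested, with a median log2 fold change of -0.48. PSMB9, the beta1i subunit, was at 11.1, 11.9 and 9.66 CPM in untreated and 5.52, 4.54 and 4.10 CPM in rhCYGB libraries. Its log2 fold change was -1.20 (SE 0.128 and adjusted p 4.51e-07 by edgeR's quasi-likelihood test), the only member of the list past 2-fold. PSME1 and PSME2, the PA28 subunits, had log2 fold changes of -0.48 and -0.55, PSMB10 of -0.28 and PSMB8 of -0.22. The call of PSMB8 was lost without untreated library 1, without untreated library 2, without rhCYGB library 3 and with DESeq2, with adjusted p between 0.0573 and 0.0856 by edgeR's quasi-likelihood test for the first 3.

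PSMB9 and TAP1 are neighbours, with starts 488 bases apart on opposite strands on GRCh38.p14. TAP1 nevertheless had a log2 fold change of 0.02 where PSMB9 had -1.20, and their 95% intervals, -0.08 to 0.11 and -1.48 to -0.93, did not meet. Among the constitutive catalytic subunits that the immunosubunits replace, PSMB5 fell (log2 fold change -0.25), while PSMB6 and PSMB7 had 0.01 and -0.07 and did not pass the test, although with total-count or upper-quartile scaling all 3 were called lower. The ratio of PSMB9 to PSMB6 FPKM was 0.0795 ± 0.00616 in untreated and 0.0341 ± 0.00426 in rhCYGB libraries (SD, n = 3). The ratio of PSMB8 to PSMB5 FPKM, 0.0700 and 0.0678, overlapped between groups.

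Of 7 cytosolic and endosomal peptidases that make or destroy class I ligands, 2 were called higher and 5 lower, with a median log2 fold change of -0.14. By mean CPM the leading ones were NRDC (log2 fold change -0.14), NPEPPS (-0.59) and THOP1 (-0.93), all called lower, and TPP2 (0.19), called higher. LNPEP, the endosomal aminopeptidase IRAP, was called lower (-0.50). THOP1, which degrades cytosolic peptides, went from 133, 121 and 122 CPM to 66.6, 64.5 and 66.6 CPM, without overlap. Neither peptidase called higher, TPP2 and BLMH, remained called with total-count or upper-quartile scaling, where BLMH changed sign.

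Class I and class I-like genes outside the 9 moved in both directions. Of 19 listed 11 were tested, 5 were called higher and 5 lower, and the median log2 fold change was 0.01. With total-count or upper-quartile scaling, 3 were called higher and 6 lower. HLA-F, HLA-G, HLA-K, CD1D and RAET1E had 0 counts in every library.

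**Figure D5:**
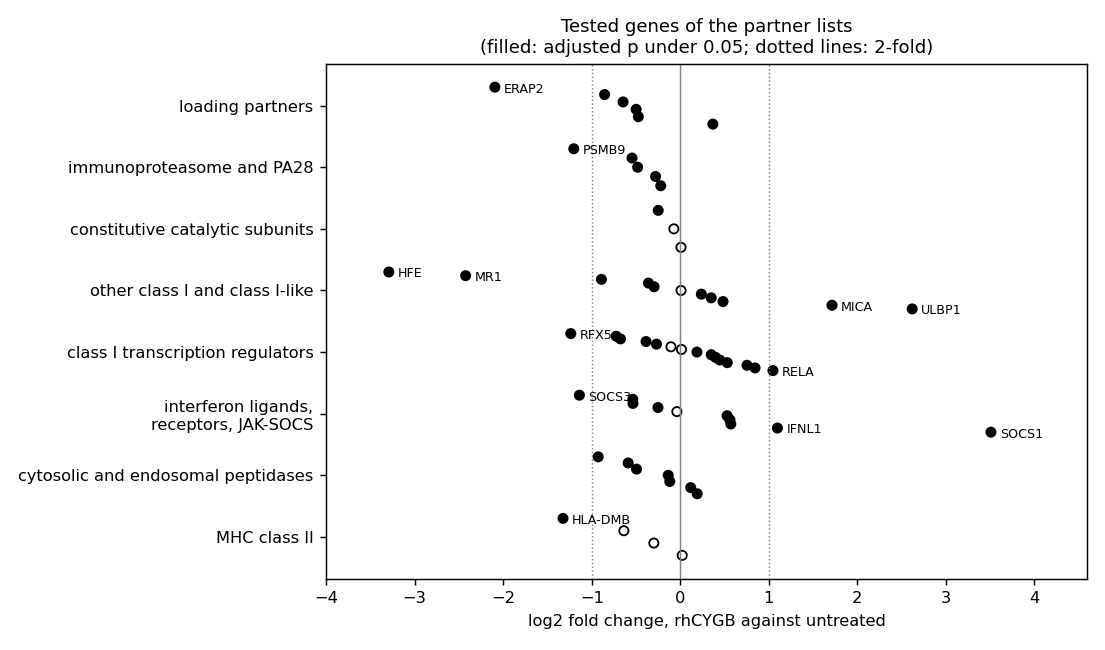
Log2 fold change of rhCYGB against untreated (horizontal axis) for the tested genes of 8 related lists, 1 point per gene, filled where the adjusted p was under 0.05, with names past 2-fold. The immunoproteasome and PA28 genes all lie below 0, the class I-like genes spread from -3.29 (HFE) to 2.62 (ULBP1), and PSMB6, IRF2, BLMH and HLA-DQB1, just above 0, are among the points that change sign with total-count scaling.

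The ligands of the natural killer receptor NKG2D gave the largest rises of that list. ULBP1 was at 7.09, 7.34 and 5.98 CPM in untreated and 41.8, 41.1 and 42.7 CPM in rhCYGB libraries, a log2 fold change of 2.62 (SE 0.0739 and adjusted p 9.27e-14 by edgeR's quasi-likelihood test). MICA was at 15.4, 15.6 and 13.1 CPM against 49.7, 48.2 and 47.0 CPM, a log2 fold change of 1.71 (adjusted p 3.15e-12 by the same test). Neither gene's groups overlapped. Of the other NKG2D ligands tested, ULBP2 was called higher (log2 fold change 0.48), and ULBP3 (-0.36) and MICB (-0.30) were called lower. The call of MICB was lost with DESeq2 and without any 1 of untreated libraries 1 and 2 and rhCYGB libraries 1 and 2, with adjusted p of 0.0558 to 0.0848 by edgeR's quasi-likelihood test for the library omissions. Differences between the ligands were not tested.

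HFE, a class I-like regulator of iron uptake that pairs with B2M, gave the largest fall of the list, from 24.8, 25.9 and 27.0 CPM to 2.80, 2.71 and 2.41 CPM. Its log2 fold change was -3.29 (SE 0.0923 and adjusted p 8.56e-14 by edgeR's quasi-likelihood test). MR1, which presents vitamin B metabolites to MAIT cells, fell from 15.8, 13.7 and 17.6 to 2.99, 2.37 and 3.36 CPM, a log2 fold change of -2.43 (adjusted p 2.01e-10 by the same test). FCGRT, the neonatal Fc receptor chain, which also pairs with B2M, had a log2 fold change of -0.89. For HFE and MR1 every rhCYGB library was far below every untreated one.

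Transcription factors that act on class I promoters moved both ways. Of 15 tested, 8 were called higher and 5 lower, with a median log2 fold change of 0.19. RELA, the p65 subunit of NF-kB, was at 49.1, 47.2 and 44.7 CPM in untreated and 95.1, 96.9 and 99.3 CPM in rhCYGB libraries, a log2 fold change of 1.05 (SE 0.0463 and adjusted p 1.36e-11 by edgeR's quasi-likelihood test). RFX5, the DNA-binding subunit of the RFX complex on class I and class II promoters, was at 77.8, 77.0 and 73.5 CPM against 31.9, 32.1 and 32.8 CPM, a log2 fold change of -1.24 (adjusted p 2.16e-12 by the same test). For both genes the groups were separate.

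By level, leading factors also included NFYA (0.19, called higher, but not called with total-count or upper-quartile scaling), NFKB1 (0.35, called higher) and IRF1 (0.53, called higher). IRF1, the interferon-inducible activator of class I, was at 45.8, 41.6 and 42.1 CPM in untreated and 59.4, 63.0 and 64.4 CPM in rhCYGB libraries. The difference exceeded the spread between libraries.

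Interferon ligands, receptors and their kinases and inhibitors gave 5 genes called higher and 4 lower of 10 tested, with a median log2 fold change of 0.24. IFNB1 and IFNG had 0 counts in every library. IFNL1, a type III interferon, had 8, 14 and 11 counts in untreated and 17, 15 and 30 in rhCYGB libraries. Its log2 fold change was 1.10 (SE 0.416 and adjusted p 0.0256 by edgeR's quasi-likelihood test), and the call was lost without untreated library 1 (adjusted p 0.0861), untreated library 3 (0.0633) or rhCYGB library 3 (0.161) by the same test.

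SOCS1, an inhibitor of JAK kinases, had the largest rise of any listed gene. It was at 2.15, 2.01 and 1.91 CPM in untreated and 23.1, 22.2 and 23.8 CPM in rhCYGB libraries, a log2 fold change of 3.51 (SE 0.0964 and adjusted p 6.84e-14 by edgeR's quasi-likelihood test). SOCS3, which restrains cytokine receptors of the gp130 family, fell from 12.2, 11.4 and 10.2 to 3.85, 5.65 and 5.83 CPM, a log2 fold change of -1.14 (adjusted p 2.55e-06 by the same test). By level, the leading others were IFNGR2 (-0.04, not called), JAK1 (0.56, called higher), TYK2 (-0.54, called lower) and IFNAR1 (-0.25, called lower).

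MHC class II genes, which share RFX5 with class I, were near the limit of detection. The 12 listed genes summed to 167 to 192 counts in untreated and 80 to 121 in rhCYGB libraries, and 4 were tested. Only HLA-DMB, a subunit of the class II peptide editor, was called, with 36, 36 and 37 counts in untreated and 13, 10 and 15 in rhCYGB libraries and a log2 fold change of -1.33 (adjusted p 0.00205 by edgeR's quasi-likelihood test). CIITA, the class II transactivator and a relative of NLRC5, had at most 8 counts in a library.

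For each of the 9 genes, the tested gene most alike across the 6 libraries was found by the root-mean-square difference of log2 CPM values centred per gene. These were PSAT1 for HLA-B (0.0199), EIF6 for HLA-C (0.0176), HEBP2 for HLA-E (0.0138), TTC1 for B2M (0.0136), PYGL for TAP1 (0.0146), P4HB for TAP2 (0.0239), CTXN1 for TAPBP (0.0210), NUP205 for ERAP1 (0.0215) and DZANK1 for NLRC5 (0.0724). None of the 9 had another of the 9 as its nearest gene. Among 14728 tested genes and over 6 libraries such an outcome was likely beforehand, so it does not show whether the 9 move together.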

How the data were processed

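RNA was sequenced from untreated and rhCYGB-treated MIA PaCa-2 cells, 3 libraries each, grouped by their labels. Libraries were made with a stranded mRNA kit, and whether counting used strand is not stated. Per the labels and the study's methods, the authors used FastQC 0.11.7, HISAT2 2.1.0 and StringTie 2.1.3b. The build listed in the labels, mm10, is a mouse build, whereas the gene table holds human genes. The authors deposited whole-number read counts per gene and per transcript, without normalization, and FPKM values, which the authors scaled to transcript length and mapped reads. Deposited TPM columns were not used. Read totals of 34838399 to 42271299 limit the precision, and floors of 3 counts cover counting error only.

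Counts were fitted with edgeR 4.0.16 in R 4.3.3 (filterByExpr, TMM factors, glmQLFit and glmQLFTest, no block), with Benjamini-Hochberg adjustment over all 14728 genes or 32577 transcripts tested. The common biological coefficient of variation was 5.48%. Libraries of a group differed by more than counting error (chi-square over degrees of freedom 4.79 to 6.89). Alternatives were other size factors, DESeq2 1.42.0, limma 3.58.1 on log2(FPKM + 1) and log2(FPKM + 0.1), other filters, counts summed from transcripts, a replicate block and leaving out each library. The fits were tested on simulated data with known changes. Those changes covered a small part of the genes, as many up as down, so the choice of scaling was not tested. The 9 genes and the related lists were chosen with earlier results of these data known. Named were all 9 genes, CALR, CANX, PDIA3, every listed gene past adjusted p 0.05 and 2-fold, up to 4 others per list by mean CPM, and the gene most alike to each of the 9. The remaining list genes named, such as ULBP2, FCGRT, CIITA, BLMH and LNPEP, were chosen after their values were seen. Some list genes are counted in their lists but not reported here by name.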

Additional observations from a re-analysis of the deposited data

How the results depend on the processing

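Of 159 fold changes of the 9 genes under the alternatives, 151 kept their direction and their side of the threshold, 7 changed sign and 1 lost its call. All 7 sign changes were those of TAP1. Its log2 fold change was -0.13 with upper-quartile factors (adjusted p 0.0154 by edgeR's quasi-likelihood test) and -0.15 with total counts (adjusted p 0.00565 by the same test). DESeq2's Wald test gave -0.00076 (adjusted p 0.992). With limma's moderated t-test TAP1 was called lower on both scales, at -0.15 on log2(FPKM + 1) and -0.16 on log2(FPKM + 0.1) (adjusted p 0.00905 each). The value was -0.0018 with at least 10 counts in every library and -0.0014 without untreated library 3 (up to 0.037 when another library was left out). NLRC5 lost its call without untreated library 1 (-0.31, adjusted p 0.0506 by edgeR's quasi-likelihood test). The cause was not tested. Over the alternatives HLA-B ranged from 0.69 to 0.88, HLA-C from 0.48 to 0.68 and B2M from -0.45 to -0.25. The number of all genes called at 2-fold was 1977 with limma on log2(FPKM + 1) against 3998, a scale on which a pseudocount shrinks the fold changes of low genes. Same-numbered libraries correlated at -0.048 to 0.0072, and different-numbered ones at -0.055 to 0.054. With 3 libraries per group these values cannot show whether the numbers pair libraries. With the replicate number as a block, 3 of the 9 genes were called higher, 5 lower and 1 at 2-fold, and among all genes 5716 were higher, 5635 lower and 3978 past 2-fold. Among list genes the block took the calls of BLMH and LAP3. Low counts limit NLRC5, IFNL1 and the class II genes.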
